A study of Mus musculus with 48 samples.

Results

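The genes described here encode subunits of the mitochondrial respiratory chain and of ATP synthase, measured in aortas of newborn and late embryonic mice that lack a protein of the elastic fibre. They were taken by symbol. Complex I held NADH dehydrogenase subunits (Nduf a, b, c, s and v series), and complex II held succinate dehydrogenase subunits (Sdha to Sdhd). Complex III held ubiquinol-cytochrome c reductase subunits (Uqcr names). Complex IV held cytochrome c oxidase subunits (Cox5 to Cox8 names), and complex V held ATP synthase subunits (Atp5 names). The symbols Cox4i1 and Cox4i2 did not match the rule, so neither gene is a member. Cox8b was left out by the rule, and Ndufa4 was counted with complex IV. Each gene was read from its probe set with the highest mean. Ndufb2, Ndufb4, Ndufs6, Uqcr10 and Cox6c had probe sets only under several symbols, so they are not members. In all, 75 of the 22180 genes with a probe set of their own matched, and 71 of them were among the 15351 genes that passed the filter on low values. The 4 that did not pass were the testis-type isoforms Cox7b2 and Cox8c and the pseudogenes Atp5c1-ps and Uqcrh-ps1. By complex, 31 of 31 members of complex I, 4 of 4 of complex II, 7 of 8 of complex III, 12 of 14 of complex IV and 17 of 18 of complex V were tested.

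Complexes I to IV pass electrons from NADH and succinate to oxygen, and complexes I, III and IV pump protons across the inner mitochondrial membrane. ATP synthase uses the returning protons to make ATP. Most subunits are encoded in the nucleus, and a few subunits come in tissue forms, such as the heart, muscle and brown fat form Cox7a1 and the heart and muscle form Cox6a2. The mitochondrial genome encodes the remaining core subunits, and no gene of it had a probe set under its own name.

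RNA was measured on 48 single-colour arrays in 24 groups of 2 arrays. The groups crossed 3 models (Eln, Efemp2 and Lox), knockout (KO) or wild type (WT), ascending aorta (AA) or descending aorta (DA), and embryonic day 17.5 (E17.5) or postnatal day 1 (P1). Each array held RNA pooled from 8 pieces of the same tissue, and 5 ng was amplified. Eln and Efemp2 mice were of the C57BL/6 strain and Lox mice of the B6 albino strain. The labels give the KO mice no further allele. Eln encodes elastin, Efemp2 encodes fibulin-4, which helps to assemble elastic fibres, and Lox encodes lysyl oxidase, which cross-links elastin and collagen. The comparisons ask whether RNA of the respiratory chain differed between KO and WT aorta in each of the 12 pairs of model, segment and stage, and how it differed between the stages. Whether the 2 arrays of a group came from separate litters is not given, so the p-values measure the spread between pools.

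Levels below are log2 values above the array's own median over the tested genes. A difference of 1 on that scale is a doubling. Before this centring the array medians ran from 4.89 to 6.85. Within groups, the 2 replicates correlated over the tested genes with a median r of 0.97 and a lowest r of 0.87. The lowest were WT groups at P1: Efemp2 AA (0.87), Eln DA (0.89) and Efemp2 DA (0.92). The smooth muscle marker Myh11 was 3.09 to 4.99 above the median on the 48 arrays, and Acta2 was 5.79 to 6.93 above it. Deposited log2 Eln was 4.23 to 5.56 on the 8 Eln KO arrays and 9.20 to 11.9 on the 8 Eln WT arrays. Deposited log2 Lox was 6.26 to 8.71 on the 8 Lox KO arrays and 9.55 to 11.5 on the 8 Lox WT arrays. Efemp2 had no probe set of its own, so its deletion was not checked. In bulk tissue, fewer cells of a type and less RNA per cell cannot be told apart. With the Lox model set aside, 4 arrays had a raised background. They were both Eln WT DA P1 arrays, and replicate 2 of Efemp2 WT AA P1 and of Efemp2 WT DA P1. Their probe sets without a symbol had a median deposited log2 of 4.35 to 4.37. On the Lox P1 arrays, which were not considered for this label, that median was 4.22 to 4.74. By a second background measure, from receptor genes, Eln WT DA P1 replicate 2 and the unlabelled Efemp2 WT AA P1 replicate 1 were both at 3.11.

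**Figure D1:**
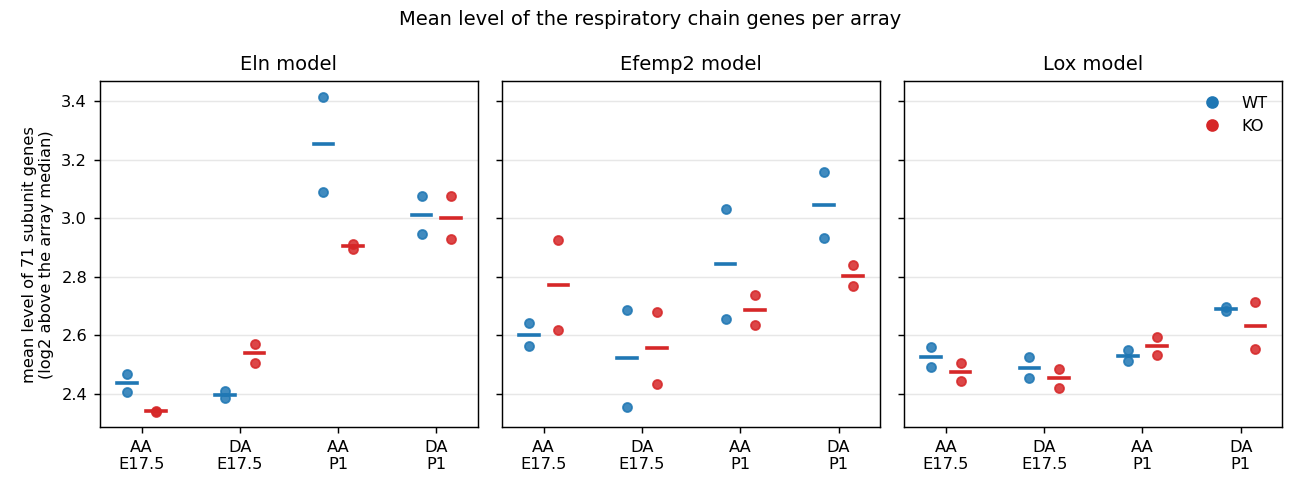
Mean level of the 71 tested subunit genes on each array, in log2 above the array median (y axis), by aorta segment and stage (x axis) for the 3 models. Points are single arrays and bars are the means of 2 arrays, WT in blue and KO in red. The highest array is replicate 2 of Eln WT AA P1, at 3.41.

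Averaged over the 4 pairs of a model, no subunit gene passed the test in any KO. In the Eln KO, 0 of 71 were higher, against 1.88% of all tested genes, and 0 were lower, against 0.808%. In the Efemp2 KO, 0 were higher against 2.59% and 0 lower against 1.07%. In the Lox KO, 0 were higher against 1.02% and 0 lower against 0.476%. Calls are by limma with Benjamini-Hochberg adjustment over all tested genes, at an adjusted p of 0.05. At an unadjusted p under 0.05, limma gave 0 higher and 5 lower in Eln, 0 and 5 in Efemp2, and 0 and 0 in Lox. The 5 lower are 7.04% of the members, where 6.38% of all tested genes in Eln and 7.13% in Efemp2 were lower at that p, so these counts lie near the background. Higher at that p were 7.76% of all tested genes in Eln, 8.92% in Efemp2 and 6.44% in Lox, and 5.14% were lower in Lox.

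The differences were small as well as uncalled. The median difference over the 71 genes, KO less WT, was −0.09 in Eln, −0.04 in Efemp2 and −0.03 in Lox, beside 0.00, 0.00 and −0.01 over all tested genes. Less the all-gene median, the Eln value of −0.088 was −0.045 without WT AA P1 replicate 2. The Efemp2 value of −0.040 turned to 0.0078 without WT DA E17.5 replicate 2 and was −0.083 without WT AA P1 replicate 2. The Lox value of −0.023 was −0.0018 without KO DA P1 replicate 2 and −0.046 without KO DA P1 replicate 1. The 95% interval of the difference lay within 0.5 of 0 on the log2 scale for 62 of the 71 genes in Eln, 63 in Efemp2 and 66 in Lox. The median standard error was 0.12. In single pairs it was 0.24, and the interval lay within that bound for 3 to 21 genes.

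**Figure D2:**
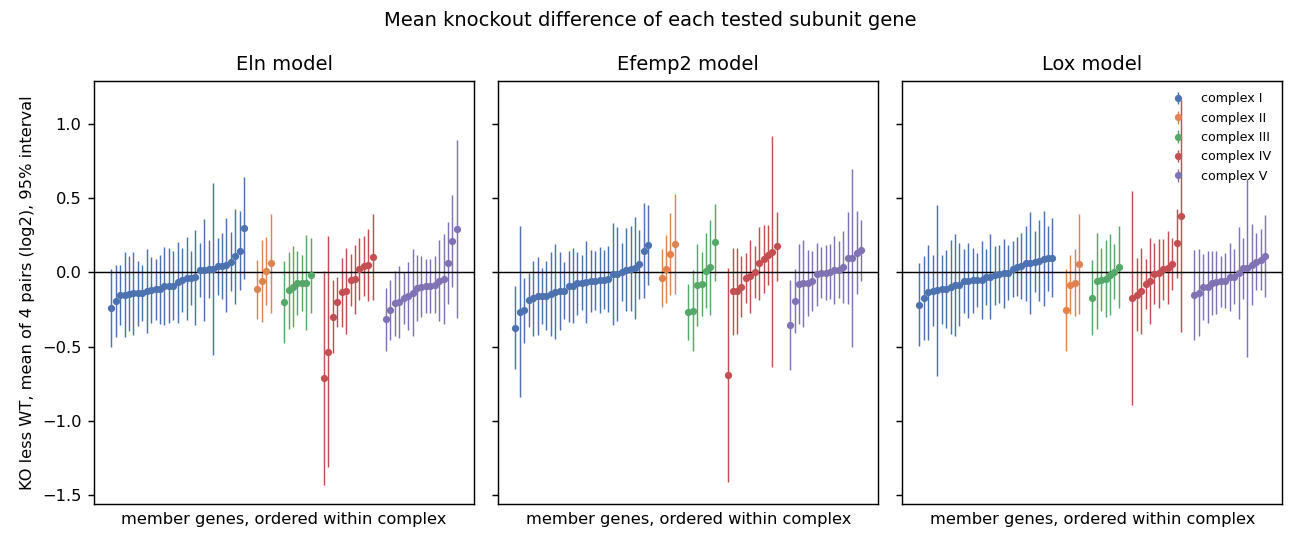
Difference KO less WT, mean of 4 pairs, in log2 (y axis) for each of the 71 tested genes, ordered by size within complexes I to V (x axis), with 95% intervals from limma as bars. The genes lie close to 0 in all 3 models, and the lowest point is Cox7a1 in the Eln model, at −0.71, with a wide interval.

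Complex I, the entry point for electrons from NADH, had a median of −0.07 in Eln, −0.07 in Efemp2 and −0.03 in Lox. Ndufv1, which binds NADH, differed by −0.05 ± 0.10 (SE, 8 KO and 8 WT arrays) in Eln, −0.07 ± 0.10 in Efemp2 and −0.06 ± 0.10 in Lox. Ndufs1, the largest iron-sulphur subunit, differed by −0.15 ± 0.14, 0.02 ± 0.14 and −0.03 ± 0.14 in the same order. The highest and lowest genes of complex I were Ndufa11 (0.30 ± 0.17) and Ndufb8 (−0.24 ± 0.13) in Eln. In Efemp2 they were Ndufb7 (0.18 ± 0.13) and Ndufs5 (−0.37 ± 0.14), and in Lox they were Ndufb7 (0.10 ± 0.13) and Ndufs5 (−0.22 ± 0.14). The Ndufs5 probe set was dim: its mean deposited value lay below the filter, which it passed through 3 of 24 groups. Another probe set, shared by Ndufs5 and Ndufs5-ps, was not used.

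Complex II is the succinate dehydrogenase of the citric acid cycle. Its flavin subunit Sdha differed by 0.01 ± 0.11 in Eln, 0.02 ± 0.11 in Efemp2 and −0.07 ± 0.11 in Lox. Sdhb, the iron-sulphur subunit, differed by −0.12 ± 0.10, −0.04 ± 0.10 and −0.08 ± 0.10. The membrane anchors were Sdhc, at 0.06 ± 0.16, 0.19 ± 0.16 and 0.05 ± 0.16, and Sdhd, at −0.06 ± 0.14, 0.13 ± 0.14 and −0.25 ± 0.14. Sdhd had the lowest adjusted p of any member in the Lox KO, 0.50. At E17.5 both Lox KO arrays lay below both WT arrays for Sdhd in AA (0.52 and 0.78 against 1.24 and 1.05) and in DA (0.53 and 0.63 against 1.10 and 1.08). None of the Sdhd differences in single Lox pairs was called. At P1 the KO and WT arrays of Sdhd overlapped in both Lox pairs, with differences of 0.11 in AA and −0.12 in DA.

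In complex III, which passes electrons to cytochrome c, the Rieske iron-sulphur subunit Uqcrfs1 differed by −0.12 ± 0.13 in Eln, 0.20 ± 0.13 in Efemp2, its highest gene there, and −0.04 ± 0.13 in Lox. The core subunit Uqcrc1 differed by −0.02 ± 0.12, 0.01 ± 0.12 and −0.17 ± 0.12. It was the highest gene in Eln and the lowest in Lox, where Uqcrb was the highest (0.03 ± 0.14). In Eln the lowest was Uqcrb, at −0.20 ± 0.14. Uqcrh, the hinge subunit, was the lowest in Efemp2. Uqcrh lay below WT in 4 of 4 Efemp2 pairs, by −0.27 ± 0.09, and its adjusted p was 0.11, the lowest of any member there. In Eln and Lox Uqcrh differed by −0.07 ± 0.09 and 0.01 ± 0.09.

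In complex IV the nuclear-encoded subunit Cox5a differed by −0.13 ± 0.11 in Eln, 0.17 ± 0.11 in Efemp2, the highest there, and −0.01 ± 0.11 in Lox. The widely expressed forms Cox6a1 (−0.05 ± 0.11, 0.09 ± 0.11 and 0.19 ± 0.11) and Cox7a2 (0.02 ± 0.10, −0.10 ± 0.10 and −0.01 ± 0.10) were not called, nor were Cox6b1 (0.05 ± 0.12, 0.06 ± 0.12 and 0.03 ± 0.12) and Cox8a (−0.05 ± 0.09, 0.00 ± 0.09 and 0.06 ± 0.09). Cox6b2, a testis form, was the highest gene in Eln, at 0.10 ± 0.14, and differed by −0.12 ± 0.14 and −0.06 ± 0.14 in Efemp2 and Lox. Cox6a2 differed by −0.53 ± 0.38 in Eln, 0.14 ± 0.38 in Efemp2 and 0.38 ± 0.38 in Lox, the highest there. Cox7a1 was the lowest in all 3 models, by −0.71 ± 0.35, −0.69 ± 0.35 and −0.17 ± 0.35, with adjusted p of 0.36, 0.34 and 0.93.

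In complex V the catalytic subunits differed little. Atp5a1, the alpha subunit, differed by −0.10 ± 0.10 in Eln, 0.15 ± 0.10 in Efemp2, the highest there, and 0.08 ± 0.10 in Lox, and Atp5b, the beta subunit, by −0.08 ± 0.09, 0.02 ± 0.09 and 0.07 ± 0.09. Atp5o, a subunit of the stalk that holds the catalytic head in place, was the lowest in Eln at −0.32 ± 0.10, with an adjusted p of 0.11. Atp5d was the highest there, at 0.29 ± 0.29. Atp5j2 was the lowest in Efemp2 (−0.35 ± 0.15) and in Lox (−0.15 ± 0.15), and Atp5h the highest in Lox (0.11 ± 0.14).

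By pair, the median over the 71 genes was farthest below 0 in the Eln AA P1 and Efemp2 DA P1 pairs. In the Eln AA pair it was −0.07 at E17.5 and −0.32 at P1, and in the Eln DA pair 0.13 at E17.5 and −0.03 at P1. For Efemp2 the AA median was 0.13 at E17.5 and −0.16 at P1, and the DA median was 0.03 at E17.5 and −0.21 at P1. Less the all-gene median, Efemp2 AA E17.5 was 0.16, and 0.04 without KO replicate 2 or 0.28 without KO replicate 1. Efemp2 DA E17.5 was 0.00, and −0.19 without WT replicate 1 or 0.13 without WT replicate 2. The 4 Lox pairs had medians of −0.08 and −0.01 at E17.5 and 0.06 and −0.04 at P1. Over all tested genes the median lay between −0.04 and 0.06 in the 12 pairs.

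**Figure D3:**
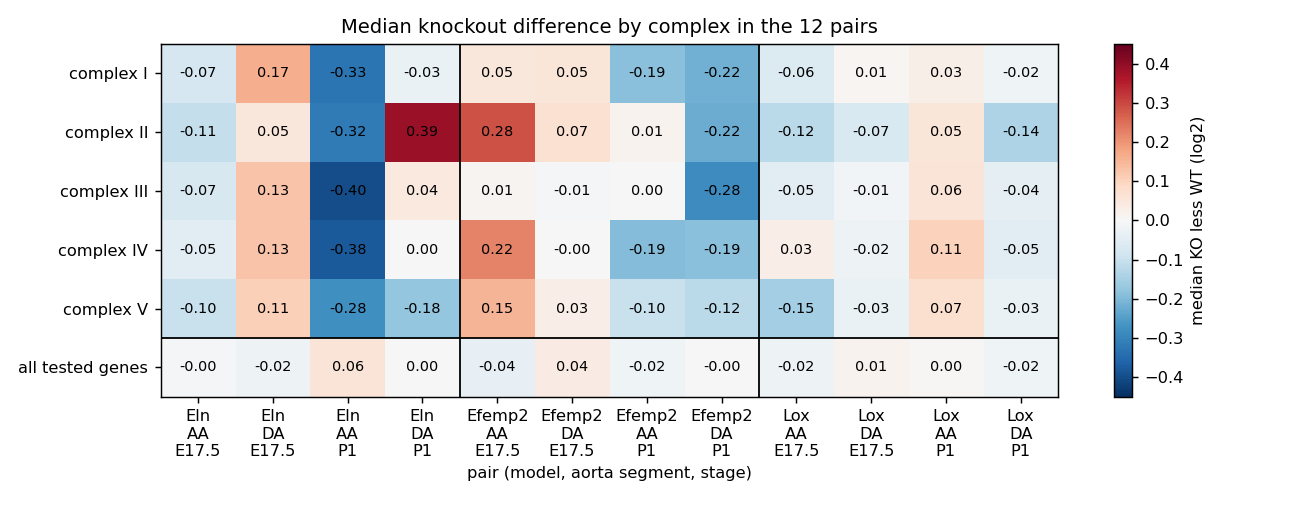
Median KO less WT difference in log2 (colour and printed value) of the tested genes of complexes I to V and of all tested genes (rows) in the 12 pairs (columns). All 5 complexes lie between −0.40 and −0.28 in the Eln AA P1 pair, and complex II stands at 0.39 in the Eln DA P1 pair.

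In the Eln AA P1 pair, 67 of the 71 genes had a negative difference, and the 5 complexes had medians from −0.40 (complex III) to −0.28 (complex V). Both KO arrays lay below both WT arrays for 38 of the 71, 53.5%, where 16.8% of all tested genes did so. For 0 of the 71 did both lie above, against 24.7%. The members' mean level was 3.09 and 3.41 on the WT replicates 1 and 2 and 2.90 and 2.91 on the KO replicates. Less the median of all genes, the members' median was −0.38, and it was −0.22 without WT replicate 2 and −0.59 without WT replicate 1.

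Markers of brown fat, which is rich in mitochondria and lies beside the aorta, moved with that pair. Their mean level over 13 genes was 0.26 and 1.605 on the WT replicates 1 and 2 and −0.10 and −0.06 on the KO replicates. Of the 10 brown fat markers tested, 4 were lower and 0 higher in the KO, with a median of −1.55. Of 16 fatty acid oxidation genes, 1 was lower and 0 higher, with a median of −0.70. Other cell markers moved too: 2 of 8 smooth muscle markers were higher (median 0.50), and 1 of 11 macrophage markers (median −0.69) and 2 of 8 endothelial markers (median −0.55) were lower. The mean level of heart and skeletal muscle markers was 1.07 and 0.48 on the WT replicates 1 and 2 and 0.50 and 0.11 on the KO replicates. Over both segments of the Eln model at P1, that of erythroid markers was −0.52 to −0.29 on WT and −1.01 to −0.60 on KO. The part of these cells in the members' difference was not tested.

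One member was called in the Eln AA P1 pair, against 0.736% of all tested genes called lower, and 0 were higher, against 1.58%. Atp5o stood at 0.04 and 0.45 on the WT arrays and −0.42 and −0.69 on the KO arrays, so the arrays did not overlap. It fell by 0.80 ± 0.21 (adjusted p = 0.036 by limma). Atp5o's mean deposited value lay below the filter, which it passed through 14 of 24 groups. Without WT replicate 2, KO replicate 1 or KO replicate 2, 0 members were called there, and without WT replicate 1, 3 were lower. In the other 3 Eln pairs Atp5o differed by −0.24, 0.07 and −0.29.

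In the Eln DA P1 pair the members went both ways: 32 of 71 had a positive difference. Both KO arrays lay below both WT arrays for 12 genes, 16.9% against 24.3% of all tested genes, and above for 11, 15.5% against 21.5%. Complex II, with a median of 0.39, and complex V, with −0.18, stood at opposite ends. Sdhc was at 0.75 and 1.59 on the WT arrays and 1.89 and 2.08 on the KO arrays. Sdhd overlapped, at 0.56 and 1.71 on WT and 1.72 and 1.39 on KO.

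In that pair 3 of 71 members were called lower, where 9.47% of all tested genes were, and 0 were called higher, against 7.26%. Cox7b, a small complex IV subunit, stood at 6.13 and 5.81 on WT and 5.42 and 4.58 on KO, a fall of 0.97 ± 0.24 (adjusted p = 0.0061 by limma). Atp5l, subunit g of the membrane part of ATP synthase, stood at 6.87 and 6.51 on WT and 6.31 and 5.83 on KO and fell by 0.62 ± 0.20 (adjusted p = 0.031 by limma). Atp5k, subunit e of the same part, stood at 6.28 and 6.05 on WT and 5.82 and 5.55 on KO and fell by 0.48 ± 0.17 (adjusted p = 0.0498 by limma).

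Both WT arrays of these 3 calls had a raised background, and they correlated with each other at 0.89. Deposited log2 Eln was 9.20 on WT replicate 1 and 11.7 on WT replicate 2. The deposited median of all tested genes was 0.27 higher in KO than in WT in that pair. Without centring, 9 members were called, 8 higher and 1 lower, so the direction of the members as a group depends on the centring. Less the median of all genes, the members' median there ran from −0.18 to 0.16 over the alternatives. With the array background as a covariate 0 were called. Over 9 alternatives, leaving out single arrays aside, the Atp5k call was lost in 6, the Atp5l call in 5 and the Cox7b call in 2. Without WT replicate 1, 0 members were called, and without WT replicate 2, 6 higher and 6 lower. Without KO replicate 1, 5 were lower, and without KO replicate 2, 2 were higher.

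The promoters of these 3 genes are shown as a description. The share of members called lower in that pair was below the 9.47% of all tested genes, so the calls do not mark the 3 genes as a set. The sequences are RefSeq's for GRCm38.p6, from 250 bases before the annotated start to 50 after it, 5′ to 3′ on the gene's strand. Capitals mark matches on either strand to letters of binding motifs: GCATGCG for NRF1, CCGGAAG for ETS factors such as GABP, GATGGCG for YY1, AAGGTCA for the estrogen-related receptors, CCAAT, and TATAAA. Atp5k lies at chr5:108434350-108434649 (minus strand), Atp5l at chr9:44920693-44920992 (minus strand) and Cox7b at chrX:106015450-106015749 (plus strand).
Atp5k: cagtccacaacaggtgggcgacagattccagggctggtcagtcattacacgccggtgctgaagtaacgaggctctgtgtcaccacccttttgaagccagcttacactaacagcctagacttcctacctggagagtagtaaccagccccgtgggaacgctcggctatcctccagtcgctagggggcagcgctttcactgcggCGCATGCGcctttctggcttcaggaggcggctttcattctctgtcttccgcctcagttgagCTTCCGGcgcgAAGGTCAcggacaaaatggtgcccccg
Atp5l: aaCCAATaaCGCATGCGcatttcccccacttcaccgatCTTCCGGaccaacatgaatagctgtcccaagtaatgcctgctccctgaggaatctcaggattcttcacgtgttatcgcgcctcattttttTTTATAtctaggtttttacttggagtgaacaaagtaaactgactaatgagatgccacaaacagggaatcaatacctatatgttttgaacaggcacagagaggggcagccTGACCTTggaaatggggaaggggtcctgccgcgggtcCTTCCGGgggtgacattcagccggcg
Cox7b: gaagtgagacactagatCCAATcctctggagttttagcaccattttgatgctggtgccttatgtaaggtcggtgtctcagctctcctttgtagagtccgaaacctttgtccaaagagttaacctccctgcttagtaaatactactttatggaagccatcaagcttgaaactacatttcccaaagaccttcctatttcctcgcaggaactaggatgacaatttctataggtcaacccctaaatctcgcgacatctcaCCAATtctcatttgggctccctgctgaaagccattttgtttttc

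Atp5k and Atp5l each held NRF1, ETS and estrogen-related receptor letters, and the NRF1 letters read on both strands at one overlapping place. Atp5l also held CCAAT and TATA letters. The Cox7b window held CCAAT letters at 2 places and no other letters searched. Of the 66 promoters found for 61 of the tested members, 11 held the NRF1 letters, 16.7%, and 17 held the ETS letters, 25.8%. Of all 32851 promoters of the same length, 3.58% and 8.86% did. The YY1 letters were in 13.6% of the members' promoters against 3.49% of all, and the estrogen-related receptor letters in 9.09% against 4.72%. CCAAT, at 39.4% against 37.4%, and TATA letters, at 10.6% against 13.6%, were about as frequent in both. Longer forms of the NRF1, YY1 and estrogen-related receptor letters were in 7.58%, 4.55% and 3.03% of the members' promoters, against 0.97%, 0.63% and 0.42% of all. A match of letters is a description and does not show binding.

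In the Eln E17.5 pairs no member was called by limma. In AA that stood against 0.0586% of all genes higher and 0.0912% lower, with 0 members at an unadjusted p under 0.05 in either direction, against 2.13% higher and 1.56% lower. In DA it stood against 0.0261% and 0.0195%, with 2 higher, 2.82% against 1.68%, and 0 lower, against 1.67%, at that p. In DA both KO arrays lay above both WT arrays for 37 of the 71, 52.1%, where 20.2% of all tested genes did so, and below for 3, 4.23% against 23.8%, with 59 of 71 differences positive. Cell markers moved there too. The mean level of macrophage markers was 0.49 and 0.63 on WT and 0.73 and 0.83 on KO, and that of brown fat markers was −0.49 and −0.57 on WT and −0.83 and −0.71 on KO. Smooth muscle markers were at 3.62 and 3.60 on WT and 3.48 and 3.47 on KO, and endothelial markers at 2.10 and 2.22 on WT and 1.92 and 1.87 on KO. Heart and skeletal muscle markers were at 0.91 and 0.73 on WT and 1.46 and 0.90 on KO. Over both segments of the Eln model at E17.5, erythroid markers ran from −1.04 to −0.44 on WT and from −0.28 to −0.19 on KO. Their part in the members' difference was not tested. In AA both lay below for 18, 25.4% against 21.4%, and above for 3, 4.23% against 19.4%, and 13 of 71 differences were positive.

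In the Efemp2 model the 2 P1 pairs had 1 call each. In AA, Ndufs5, an accessory subunit of complex I, stood at −0.40 and −0.65 on WT and −1.72 and −1.64 on KO and fell by 1.15 ± 0.27 (adjusted p = 0.017 by limma). That is 1 lower call of 71, where 1.20% of all tested genes were lower, and 0 higher against 2.16%. In DA, Ndufs5 stood at −1.47 and −0.90 on WT and −2.08 and −1.76 on KO, a difference of −0.73 that was not called. Ndufs5 passed the filter only through this WT AA group and the 2 Lox WT groups at P1, and the Efemp2 KO groups lay below it, so it entered the test in part because WT was high here. With no filter, where that choice does not arise, it was called too, at −1.03, and with the stricter filter it was not tested. Without WT replicate 1, KO replicate 1 or KO replicate 2, 0 members were called in Efemp2 AA P1, and without WT replicate 2, which had a raised background, 4 were lower. Less the median of all genes, the members' median there was −0.14, and it was 0.04 without WT replicate 1 and −0.36 without WT replicate 2.

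In Efemp2 DA P1, Ndufc2, also an accessory subunit of complex I, stood at 5.01 and 4.86 on WT and 4.19 and 3.97 on KO and fell by 0.86 ± 0.19 (adjusted p = 0.015 by limma). The background was 0.293% lower and 0.762% higher, with 0 members higher. In AA, Ndufc2 stood at 4.33 and 3.94 on WT and 4.17 and 4.10 on KO, and the arrays overlapped. The Ndufc2 call was lost without centring, without WT replicate 2 and without KO replicate 2. Cox7b, Atp5l, Atp5k and Ndufc2 were named after their values were seen.

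In Efemp2 DA P1 63 of 71 differences were at or below 0, and both KO arrays lay below both WT arrays for 35, 49.3% against 18.4% of all tested genes. Both lay above for 1, 1.41% against 19.9%. The members' mean level was 3.16 and 2.93 on WT and 2.84 and 2.77 on KO. Brown fat markers had mean levels of 1.28 and 0.87 on WT and 0.00 and 0.11 on KO, with 1 of 10 tested lower, 0 higher and a median of −1.07. Of the 20 tested heart and skeletal muscle markers 0 were called, with a median of 0.55, and of 11 macrophage markers 0, with a median of 0.42. Their part in the members' difference was not tested. In Efemp2 AA P1 both KO arrays lay below both WT arrays for 13 genes, 18.3% against 20.3%, and above for 5, 7.04% against 21.1%.

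At E17.5 the Efemp2 pairs had 0 calls by limma. In AA the background was 0.619% higher and 0.130% lower, with 6 members higher, 8.45% against 4.14% of all tested genes, and 0 lower, against 3.78%, at an unadjusted p under 0.05. In DA it was 0.0651% and 0.0130%, with 0 and 0 against 3.63% and 2.74%. The AA pair held the array richest in heart muscle markers, described with Cox6a2 below. Without WT replicate 2 of that pair 7 members were called higher, and without any other of its arrays 0 were.

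The 4 Lox pairs had 0 calls by limma. The backgrounds, higher and lower, were 0.0130% and 0.0130% in AA E17.5, 0.00651% and 0.00651% in DA E17.5, 0.345% and 0.117% in AA P1, and 0.163% and 0.0782% in DA P1. At an unadjusted p under 0.05, the members higher and lower numbered 0 and 1, 1 and 1, 0 and 0, and 0 and 0, at most 1.41%, where 2.44% to 3.27% of all tested genes were higher and 1.66% to 2.69% lower. Both KO arrays lay below both WT arrays for 8 to 19 of the 71 genes in these pairs, 11.3% to 26.8% by pair, where 16.7% to 25.3% of all tested genes did so. Both lay above for 4 to 21, 5.63% to 29.6% against 14% to 26.3%.

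The differences between stages, segments and models were tested in their own contrasts, and limma called 0 members in all of them. For the KO effect at P1 less that at E17.5, the background was 0.202% higher and 0.137% lower in Eln, 0.306% and 0.124% in Efemp2, and 0.0586% and 0.0391% in Lox. At an unadjusted p under 0.05, 0 members were higher and 8 lower in Eln, 0 and 13 in Efemp2, and 1 and 1 in Lox. The lower members are 11.3% in Eln, 18.3% in Efemp2 and 1.41% in Lox, against 5.45%, 6.94% and 3.21% of all tested genes at that p, and 7.02%, 8.65% and 3.11% of all were higher. The members' medians were −0.20, −0.26 and 0.04. Only 6 of 71 differences were positive in Efemp2, and 12 in Eln. Ndufs5 came nearest, with −1.14 ± 0.27 in Efemp2 (adjusted p = 0.051 by limma), a contrast that holds the WT group through which this dim probe set passed the filter. Less the median of all genes, the medians were −0.23, −0.25 and 0.04. They were −0.15 without Eln WT AA P1 replicate 2, −0.16 without Efemp2 WT DA E17.5 replicate 1, and 0.01 without Lox KO DA E17.5 replicate 1 or 0.09 without Lox KO DA P1 replicate 2. With cyclic loess the Lox median was −0.03. Of the listed genes outside the members, limma called Ndufa4l2 higher in Efemp2 (1.83 ± 0.33, adjusted p = 0.017) and in Lox (1.61 ± 0.33, adjusted p = 0.043). In Lox the cell cycle gene Mcm2 was also higher (0.84 ± 0.17, adjusted p = 0.036 by limma), and in Eln no listed gene was called.

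For the KO effect in DA less that in AA, the background was 0.873% higher and 3.93% lower in Eln, and 0% in both directions in Efemp2 and Lox. The members' median was 0.28 in Eln, with 59 of 71 positive, against −0.02 over all tested genes. This Eln contrast, for members and lists alike, holds both WT DA P1 arrays, which had a raised background. Less the median of all genes, the members' median in Eln was 0.31. It was 0.22 without WT AA P1 replicate 2 and 0.38 without WT AA P1 replicate 1, and ran from 0.18 to 0.42 over the other alternatives. At an unadjusted p under 0.05, 12 members were higher, 16.9% against 7.91% of all tested genes, and 0 lower, against 14.4%. None passed that p in Efemp2, against 3.77% higher and 2.94% lower of all, or in Lox, against 0.749% and 0.951%. Ndufs8, an iron-sulphur subunit of complex I, came nearest at 1.07 ± 0.34 (adjusted p = 0.058 by limma). In AA P1 it was at 3.04 and 2.98 on WT and 2.34 and 2.04 on KO, and in DA P1 at 2.15 and 1.82 on WT and 3.18 and 2.14 on KO. Of 71 mitochondrial ribosome genes, 66 were positive in the same contrast, with a median of 0.36 and 3 called higher. The assembly factors Sdhaf4 (1.19 ± 0.25) and Ndufaf8 (0.88 ± 0.24) were higher, and Ppargc1a, the biogenesis coactivator PGC-1 alpha, was lower (−1.05 ± 0.31), opposite to the members' median. The endothelial marker Emcn was higher (1.59 ± 0.28) and the smooth muscle marker Myh11 lower (−0.85 ± 0.20). Of 11 macrophage markers 11 were positive (median 0.61, 1 higher), and the part of these cells was not tested. These genes were named after their values were seen.

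Between models, limma called 0 members in each of the 3 differences. The backgrounds, higher and lower, were 0.235% and 0.423% for Eln less Efemp2, 0.0651% and 0.0391% for Eln less Lox, and 0.0130% and 0% for Efemp2 less Lox. At an unadjusted p under 0.05 there were 0 and 1, 0 and 0, and 0 and 1 members, where 3.01% to 4.29% of all tested genes were higher and 2.53% to 4.05% lower. Medians were −0.03, −0.04 and −0.03.

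Between WT segments, averaged over 6 pairs, limma called 0 members, where 4.59% of all tested genes were higher in DA and 4.56% lower. There were 4 members higher, 5.63% against 11.2% of all tested genes, and 1 lower, 1.41% against 11.8%, at an unadjusted p under 0.05. The median was −0.02, and the 95% interval lay within 0.5 of 0 for 67 of 71. Cox5a was nearest to a call, at 0.25 ± 0.09 (adjusted p = 0.085 by limma). The highest difference was that of Cox7a1, at 0.69 ± 0.29. In the same contrast Cd36 (0.99 ± 0.21) and Fabp4 (0.45 ± 0.09) were higher, and no other of the 10 tested brown fat markers was called. Heart genes went both ways, with Myh6 higher (1.03 ± 0.26) and Tnnt2 lower (−0.97 ± 0.17). The endothelial markers Vwf (0.95 ± 0.08) and Kdr (0.87 ± 0.13) were higher, as were the macrophage markers Mrc1 (0.50 ± 0.14) and Adgre1 (0.43 ± 0.09). Smooth muscle markers went both ways, with Myh11 higher (0.31 ± 0.08) and Myocd lower (−0.49 ± 0.08). The part of these cells was not tested. Other listed genes went both ways too, with Ndufa4l2 higher (0.43 ± 0.14) and Higd1a lower (−0.65 ± 0.09).

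Cox7a1 had the widest range of group means of the 71 tested members, 3.84, over both stages and all 3 models. In the Eln model at P1, AA, it was at 1.57 and 4.44 on WT and 1.80 and 0.68 on KO, and in DA at 4.11 and 3.24 on WT and 2.85 and 2.07 on KO. In Efemp2 DA P1 it was at 3.70 and 3.31 on WT and 1.47 and 1.05 on KO, a difference of −2.24 ± 0.70 with an adjusted p of 0.12. In the Lox P1 pairs Cox7a1 was at 0.06 and 1.04 on WT and −0.04 and 0.62 on KO in AA, and at 2.32 and 1.96 on WT and 1.55 and 1.84 on KO in DA.

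The uncoupling protein Ucp1, which defines brown fat, was high on some of the same P1 arrays. It was at −1.06 and 3.53 on the Eln WT AA P1 arrays, so replicate 2 stood out for Ucp1 as for Cox7a1. On the Efemp2 DA P1 arrays Ucp1 was at 3.10 and 1.47 on WT and −0.996 and −1.35 on KO. Over the P1 arrays the mean level of the brown fat list ran from −0.32 to 1.605 on WT and from −0.71 to 0.64 on KO, and at E17.5 from −0.96 to −0.26 and from −0.91 to −0.51. In the mean Eln contrast 3 of 10 tested brown fat markers were lower, with a median of −0.55: Cd36, which takes up fatty acids (−1.09 ± 0.26), Pparg (−0.84 ± 0.18) and Fabp4 (−0.54 ± 0.11). In Efemp2 and Lox 0 were called by limma, with medians of −0.46 and −0.44 and 6 lower in each at an unadjusted p under 0.05. At E17.5 Cox7a1 reached 2.37 on WT and 2.79 on KO arrays, where the highest Ucp1 was −1.47 and −1.37. The mean level of the heart and skeletal muscle list reached 1.57 on WT and 2.20 on KO at that stage. On the Eln WT AA P1 replicates 1 and 2 that list was at 1.07 and 0.48. The part of brown fat or of heart muscle in the Cox7a1 values was not tested.

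**Figure D4:**
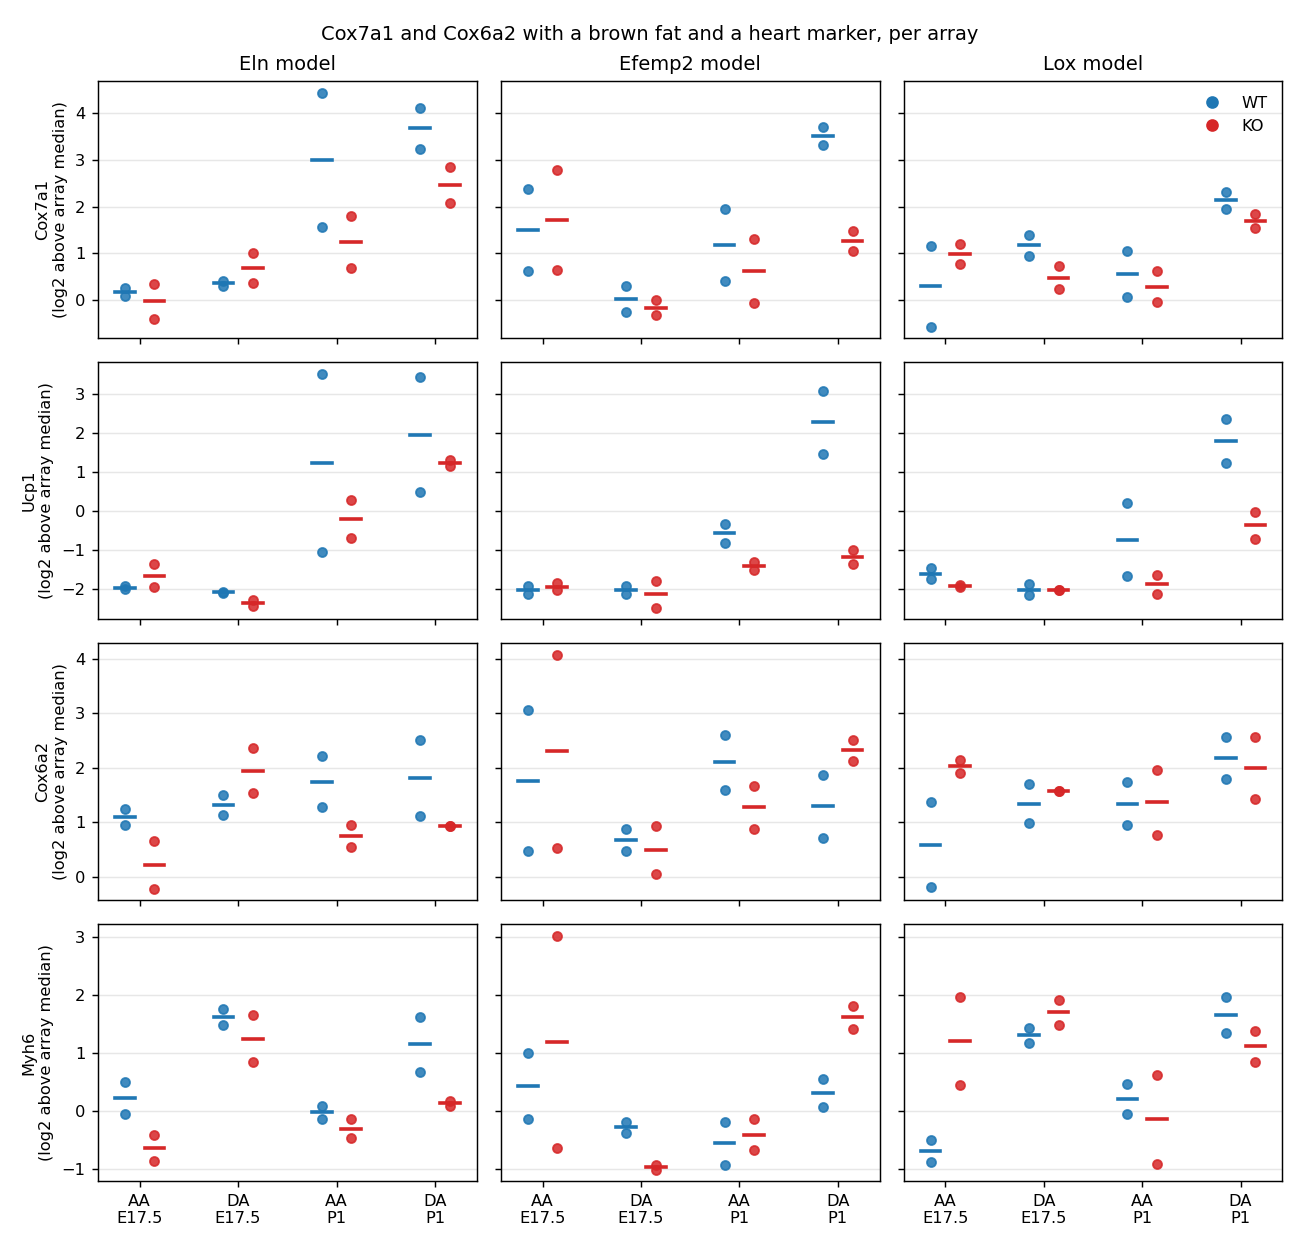
Levels in log2 above the array median (y axes) of Cox7a1, Ucp1, Cox6a2 and Myh6 (rows) by segment and stage (x axis) in the 3 models (columns). Points are arrays and bars are means of 2, WT in blue and KO in red. Replicate 2 of Eln WT AA P1 is high for Cox7a1 (4.44) and Ucp1 (3.53), and replicate 2 of Efemp2 KO AA E17.5 is high for Cox6a2 (4.07) and Myh6 (3.02).

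Cox6a2 varied with heart muscle genes between the replicates of 1 pair. In Efemp2 AA E17.5 it was at 3.05 and 0.47 on WT and 0.53 and 4.07 on KO, and Myh6, the heart myosin heavy chain, was at 1.00 and −0.15 on WT and −0.63 and 3.02 on KO. The mean level of the 21 heart and skeletal muscle markers was 1.57 and 0.55 on WT and 0.63 and 2.20 on KO. Replicates of each genotype were thus farther apart than the genotypes. In Lox AA E17.5 Cox6a2 was at −0.19 and 1.37 on WT and 2.14 and 1.91 on KO, a difference of 1.44 that was not called. The mean level of the same markers there was 0.66 and 0.57 on WT and 1.16 and 1.08 on KO. The WT replicates thus went opposite ways for Cox6a2 and the markers. The part of heart muscle in these values was not tested.

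Genes that serve the chain were also mostly uncalled in the mean KO contrasts. Of the assembly factors, 0 of 15 for complex I, 0 of 4 for complex II, 0 of 5 for complex III, 0 of 19 for complex IV and 0 of 3 for complex V were called by limma in any model. Over the 5 lists together, 1 higher and 1 lower had an unadjusted p under 0.05 in Eln, 2 and 3 in Efemp2, and 3 and 1 in Lox. Of 9 subunits named outside the patterns, 17 citric acid cycle genes, 16 fatty acid oxidation genes and 71 mitochondrial ribosome genes, 0 were called in any model by limma. The outside subunits gave, at an unadjusted p under 0.05, 0 higher and 1 lower in Eln, 0 and 2 in Efemp2, and 0 and 0 in Lox. The citric acid cycle gave 0 and 1, 1 and 1, and 0 and 0, fatty acid oxidation 1 and 2, 0 and 2, and 0 and 1, and the mitochondrial ribosome 0 and 3, 1 and 3, and 0 and 4. Of 57 cytosolic ribosome genes 0 were called, with 0 and 1, 2 and 2, and 1 and 0 at that p. Fatty acid oxidation had the lowest medians of these lists, −0.19, −0.13 and −0.20 in Eln, Efemp2 and Lox.

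Among 18 regulators of mitochondrial biogenesis, Pprc1, a coactivator related to PGC-1, was higher in the Lox KO by 0.43 ± 0.11 (adjusted p = 0.045 by limma), and 0 were called in Eln or Efemp2. Of 11 genes of exchange across the mitochondrial membranes, Tomm40, the channel for imported proteins, was higher in the Efemp2 KO by 0.39 ± 0.11 (adjusted p = 0.040 by limma). Of 11 genes tied to hypoxia and mitochondria, the glucose transporter Slc2a1 (0.68 ± 0.11) and the glycolytic enzyme Pgk1 (0.63 ± 0.11) were higher in the Efemp2 KO, and the hexokinase Hk2 (0.46 ± 0.10) was higher in the Lox KO. The list's medians were −0.05 in Eln, 0.18 in Efemp2 and 0.19 in Lox.

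Markers of other cells changed in the same contrasts, most of all in Efemp2. There 8 of 11 macrophage markers were higher (median 0.61), among them Itgam (1.29 ± 0.16) and Lyz2 (1.18 ± 0.18), and 6 of 8 endothelial markers were lower (median −0.52), among them Cldn5 (−0.60 ± 0.12). In Lox 1 of 11 macrophage markers, Adgre1 (0.59 ± 0.11), and 1 of 10 cell cycle genes, Mcm2 (0.54 ± 0.08), were higher. In Eln 1 of 8 endothelial markers, Emcn (−1.09 ± 0.14), and 1 of 20 heart and skeletal muscle markers, Pln (−0.97 ± 0.25), were lower, and 1 of 8 smooth muscle markers, Smtn (0.55 ± 0.13), was higher. Of 3 erythroid markers limma called 0 in any model, with 0, 1 and 1 higher and 0 lower at an unadjusted p under 0.05. The part of these cells in the members' values was not tested.

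Between stages the members' median change was above 0 in 6 of 6 sets of model and genotype, though in Efemp2 KO it was −0.0081 without AA E17.5 replicate 1 and −0.0046 with no filter. No test was made, because array medians differ between the stages and which arrays were normalized together is not given. Less the median change of all tested genes, the members' median change from E17.5 to P1 was 0.67 in Eln WT and 0.49 in Eln KO, 0.38 and 0.13 in Efemp2, and 0.29 and 0.21 in Lox. Of 71 genes, 64, 60, 57, 40, 45 and 46 were above 0 in that order. The upper end of the middle 50% of all tested genes was 0.40 in Eln WT and 0.33 in Eln KO, below the members' median, and 0.49, 0.34, 0.38 and 0.33 in the other sets, above it. Brown fat markers moved with the stage: their mean level ran from −0.78 to −0.49 at E17.5 and 0.26 to 1.605 at P1 in Eln WT, and from −0.91 to −0.71 and −0.10 to 0.64 in Eln KO. In Efemp2 WT it ran from −0.96 to −0.26 and 0.00 to 1.28, and in Efemp2 KO from −0.78 to −0.57 and −0.49 to 0.11. In Lox WT it ran from −0.56 to −0.32 and −0.32 to 0.73, and in Lox KO from −0.65 to −0.51 and −0.71 to 0.17. The macrophage markers' mean level ran from 0.07 to 0.63 at E17.5 and 0.75 to 1.23 at P1 in Eln WT. The part of these cells in the stage change was not tested. The change was larger in WT than in KO for 59 of 71 genes in Eln, 67 in Efemp2 and 27 in Lox. The same share over all tested genes was not computed. Apart from the medians taken off, these counts restate the KO effect at P1 less that at E17.5. In that contrast, described above, limma called no member in any model.

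Complexes differed in size of this change. In Eln WT complex III had the highest median, 1.05, and complex II the lowest, 0.34. In Lox complex II had the highest median, 0.46 in WT and 0.55 in KO. In Efemp2 KO all 4 genes of complex II were below 0, with a median of −0.15. In all, 21 of 71 genes were above 0 in all 6 sets and 0 were below 0 in all 6. Uqcrh changed by 0.53 to 1.23 over the 6 sets, and Ndufs7, an iron-sulphur subunit of complex I, by 0.49 to 0.94. Atp5b went the other way in the Eln and Efemp2 models, with −0.35 in Eln WT, −0.43 in Eln KO, −0.61 in Efemp2 WT and −0.77 in Efemp2 KO, and was at 0.30 and 0.10 in Lox. The highest change in Eln WT was that of Cox7a1, 3.08. Uqcrh, Ndufs7 and Cox7a1 were named for these values.

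**Figure D5:**
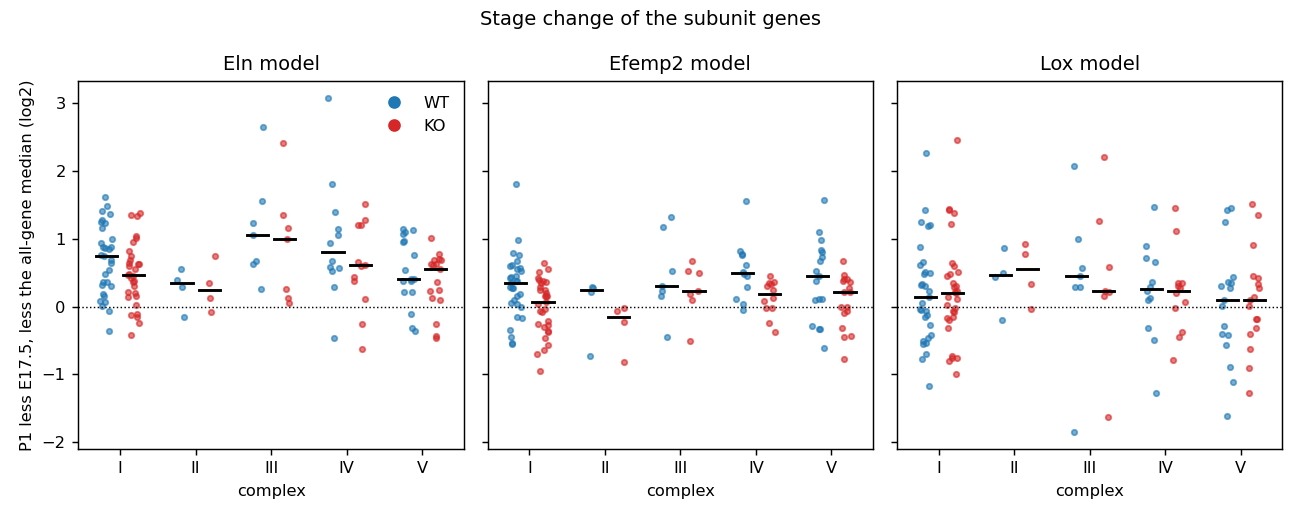
Change from E17.5 to P1 in log2, less the median change of all tested genes (y axis), for each tested gene by complex (x axis) in the 3 models. WT is blue, KO is red and black bars are medians. Eln WT has the highest median over all members, 0.67, and Efemp2 KO the lowest, 0.13.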

How the data were processed

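RNA of 48 aorta pools was measured on arrays. The authors deposited log2 values per probe set, made with RMA in Affymetrix Expression Console per the submitters' processing notes. Versions, array name and genome build are not given in the sources used here. Of 41345 probe sets, 23521 had 1 gene symbol, 1814 several and 16010 none, and only the first were used. A gene passed the filter where 1 group mean reached 4.94, the median over these probe sets of their mean value. Arrays were centred on their median over tested genes, and limma 3.58.1 in R 4.3.3 fitted 24 group means (24 residual degrees of freedom), with Benjamini-Hochberg adjustment over 15351 genes and a threshold of 0.05. The scripts were tested on simulated data. RMA shares information across arrays normalized together, and the small number of arrays limits precision. Replicate numbers were not used as a block. The named genes were members called in a mean, stage, segment or model contrast, complex II, tissue isoforms, catalytic subunits, the highest and lowest gene of each complex, up to 4 genes of each pathway list called in a mean KO contrast, and the deleted genes. Means over both segments or both stages were also computed, outside the planned comparisons, and are not reported. Members and lists were chosen with earlier results of these data known. In the promoters, 6 sets of letters and 3 longer forms were searched. Alternatives were centring, cyclic loess, filters, probe set choice, arrays in the fit, variance prior, replicate block, background covariate, leaving out 4 arrays of raised background, leaving out the replicate 1 arrays of Lox KO at E17.5, which kept more Lox signal, and leaving out each array.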

Additional observations from a re-analysis of the deposited data

Results flagged for a closer look

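The mean level of the 71 tested subunit genes went opposite ways in the 2 segments of the Eln model at E17.5. In AA it was 0.10 lower in KO (−0.097), with both KO arrays below both WT arrays, and in DA it was 0.14 higher in KO, with both KO arrays above both WT arrays. The AA difference less the DA difference was −0.24. That difference of the mean level was not tested. By the median level of the same genes the DA arrays overlapped, at 2.607 and 2.521 on WT and 2.524 and 2.629 on KO. In AA the median levels did not overlap, at 2.575 and 2.633 on WT and 2.480 and 2.417 on KO.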

How the results depend on the processing

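The count of members called by limma was recomputed under each alternative. Of the 6 genes called in single pairs, none changed direction under any alternative run, but calls were lost. Leaving out single arrays aside, the Atp5k call was lost in 6 of 9 alternatives and the Atp5l call in 5 of 9. The Cox7b and Atp5o calls were each lost in 2 of 9. The Atp5k difference ran from −0.64 to −0.20 and the Atp5l difference from −0.78 to −0.18. The Ndufs5 difference ran from −1.28 to −0.92 and the Ndufc2 difference from −0.94 to −0.76. In the Efemp2 mean contrast 1 member was called with cyclic loess and 1 without the 4 arrays of raised background. In the Efemp2 stage contrast 1 was called on deposited values without centring, 1 with the mean of probe sets, 1 with the background covariate and 1 without those 4 arrays. In the Eln segment contrast 2 were called without centring, 2 with no filter and 1 with the replicate block. Between WT segments 2 were called with cyclic loess, 2 with the stricter filter and 3 without the 4 arrays. In Eln AA P1, 0 were called with the stricter filter, 2 with the replicate block, 2 with the covariate, 2 without the 4 arrays and 0 with only the arrays of the model. In Eln DA P1, 9 were called without centring, 7 with no filter (6 higher, 1 lower), 5 with the stricter filter, 5 with trend and robust variances and 0 with the covariate. In Efemp2 AA P1, 0 were called with the stricter filter, 6 without the 4 arrays and 0 with only the arrays of the model. In Efemp2 DA P1, 0 were called without centring, 0 with no filter and 0 with only the arrays of the model. The cause of these changes was not tested. The remaining counts stayed within 1.5 times their value.

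Leaving out 1 array at a time gave 0 to 1 called members in the Eln mean contrast, 0 to 1 in the Efemp2 mean contrast and 0 to 1 in the Efemp2 stage contrast. The range was 0 to 2 in the Eln segment contrast, 0 to 3 between WT segments, 0 to 3 in Eln AA P1, 0 to 12 in Eln DA P1, 0 to 7 in Efemp2 AA E17.5, 0 to 4 in Efemp2 AA P1 and 0 to 1 in Efemp2 DA P1. The median stage change of Lox WT ran from 0.22 to 0.30.

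The median stage change in Eln WT was 0.47 with no filter, 0.84 with the stricter filter and 0.86 without the 4 arrays, and in Eln KO 0.62 with the stricter filter. In Efemp2 WT it was 0.57 with cyclic loess, 0.13 with no filter and 0.58 with the stricter filter. In Lox WT it was 0.23 with cyclic loess, 0.44 with no filter and 0.16 with the stricter filter, and in Lox KO 0.38 with no filter and 0.11 with the stricter filter. Eln DA P1 and the Eln stage and segment contrasts were not run without the 4 arrays, since Eln WT DA P1 would be empty. Differences between replicates correlated from −0.23 to 0.20 between KO and WT and from −0.25 to 0.36 between AA and DA. The highest were between AA and DA at P1, 0.36 in Eln KO and 0.29 in Efemp2 WT. These values do not settle whether the replicate numbers pair the arrays. Whether AA and DA pools came from the same animals is not given, and the fit took all arrays as independent. With 2 arrays a group, the number of arrays limits the precision.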
